A study of Homo sapiens with 6 samples.

Results

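The BCL2 family decides whether a cell opens the outer membrane of its mitochondria and dies by apoptosis. Its transcripts were followed here in HK-2 cells, an immortalised line of human proximal tubule epithelium, after knockdown of PARP1. The 10 genes described are BCL2, BCL2L1 and MCL1, which guard the membrane, BAX and BAK1, which perforate it, and BCL2L11, BID, BAD, BBC3 and PMAIP1 of the BH3-only branch. They were taken by gene symbol from the deposited count table of 30403 genes. Each symbol matched a single row, and all 10 were among the 16040 genes that passed the filter on low counts. The 3 libraries of the shPARP1 group came from cells transfected with a plasmid for a PARP1 shRNA. The 3 libraries of the shCtrl group came from cells given a control shRNA plasmid. Both groups received Lipofectamine 2000, were grown in medium with fetal bovine serum and were harvested after 48 h. The labels name no selection of transfected cells, and they do not say whether replicates were separate cultures. The p-values therefore reflect only how far these libraries scatter, and that scatter may be technical.

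Apoptosis through mitochondria starts when BAX and BAK1 form pores that release cytochrome c into the cytosol, where it activates caspases. The guardians bind and restrain the pore formers. BH3-only proteins carry damage and stress signals: they occupy the groove of the guardians, and some of them also activate the pore formers directly. In the renal tubule this pathway is known for its part in cell loss after ischaemic or toxic injury. Much of the regulation is at the level of protein turnover, phosphorylation and localisation, which mRNA counts do not show.

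The control libraries held 24429683 to 26269194 counts and the knockdown libraries 29387853 to 32809303, so each knockdown library was deeper than each control. At these totals, 3 counts stood for 0.0914 to 0.123 CPM (counts scaled to library size). PARP1, the check on the labels, averaged 261 ± 2.37 CPM across control libraries and 27.3 ± 1.37 CPM across knockdown libraries (SD, n = 3 per group). The epithelial keratin gene KRT8 stood at 635 ± 11.9 CPM in shCtrl, and the renal transcription factor gene PAX8 at 417 ± 4.53 CPM. Other epithelial markers stood lower than KRT8, with EPCAM at 10.0 ± 1.17 and CDH1 at 3.35 ± 0.44 CPM in shCtrl. Of 6 tested epithelial markers, 3 rose in shPARP1 and 2, CDH1 and CDH2, fell. Of 12 listed proximal tubule markers, 7 were tested, and 6 of these, PAX8 among them, fell in shPARP1. Of all tested genes, 27.3% were called higher and 28.5% lower. PAX2 and AQP1 were at 1.64 ± 0.262 and 2.21 ± 0.289 CPM in shCtrl. LRP2, CUBN, SLC34A1, ANPEP and MME were too low to test. Transcripts of the brush-border endocytic receptor gene LRP2 were at 0 in all 3 shCtrl libraries. The 3 endothelial markers with a row summed to between 0.227 and 0.424 CPM per library. Fibroblast and pericyte markers (5 with a row) summed to between 19.8 and 22.8 CPM in shCtrl and between 10.8 and 11.8 in shPARP1, where LUM and PDGFRB were lower and THY1 was higher. Leukocyte markers (5 with a row) summed to between 14.3 and 16.2 CPM in shCtrl and between 11.2 and 11.7 in shPARP1. In that list CD14 was lower, at 8.14 ± 0.78 and 2.72 ± 0.414 CPM, and CD68 was higher, at 6.5 ± 0.0926 and 8.29 ± 0.332 CPM. PTPRC, COL1A2, KDR and TEK had no row among those used here. The part of these markers in the results was not tested. In bulk RNA, fewer cells of a type and less RNA per cell cannot be told apart.

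Knockdown of PARP1 went with small changes in opposite directions across the family. BCL2L1, BAK1, BID and BAD rose, by between 20.2% and 40.9%. BCL2, MCL1, BAX, BCL2L11 and BBC3 fell, and PMAIP1 did not pass the test. Each of the 3 functional classes held at least 1 gene that rose and 1 that fell. Calls rest on edgeR's quasi-likelihood test, with Benjamini-Hochberg adjustment over all 16040 genes and a threshold of 0.05. The background was high: 55.7% of all tested genes were called, 27.3% upward and 28.5% downward. The 4 upward and 5 downward calls among the 10 members stand beside those shares and are not read as particular to the family. For 8 of the 10 members the libraries of the 2 groups were fully separated in CPM, 4 upward and 4 downward. Of all tested genes, 60.1% were separated in this way, 29.7% upward and 30.4% downward. The median log2 fold change of the members was -0.25, beside -0.007 over all genes. It lies between the estimates of BAX and PMAIP1. The members split into rises and falls, so this median describes no shared shift. Of all tested genes, 18.4% changed more in absolute log2 terms than BCL2 and 62.2% more than PMAIP1. The order of the members by size of change was not the same in all alternatives. With an offset for gene length and GC, for example, BCL2 changed by -0.52, BID by 0.53, BBC3 by -0.12 and PMAIP1 by -0.46.

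**Figure D1:**
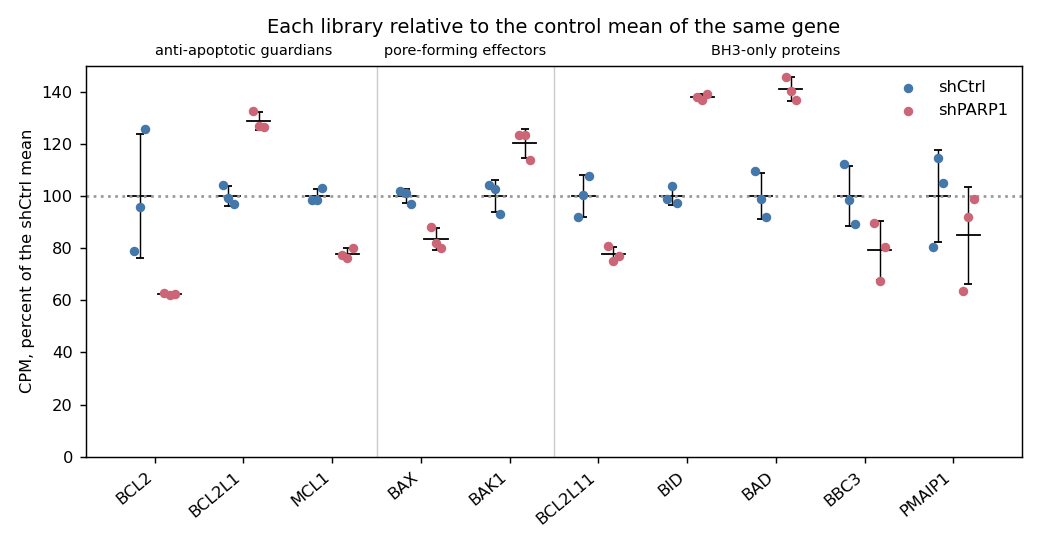
CPM of each library as a percent of the shCtrl mean of the same gene (linear axis from 0), for 3 shCtrl libraries in blue and 3 shPARP1 libraries in red, with the mean and SD in black. The shPARP1 libraries lie above those of shCtrl for BCL2L1, BAK1, BID and BAD, below them for BCL2, MCL1, BAX and BCL2L11, and overlap with them for BBC3 and PMAIP1.

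Among the guardians, BCL2L1 rose while MCL1 and BCL2 fell. BCL2L1 encodes BCL-XL, a long-lived protein of the outer mitochondrial membrane that holds BAX, BAK1 and BH3-only proteins. Its CPM values were 301, 287 and 280 in the shCtrl libraries and 384, 367 and 366 in the shPARP1 libraries. The lowest knockdown library was thus above the highest control. The log2 fold change was 0.36 (SE 0.034, 95% interval 0.30 to 0.43, edgeR adjusted p = 8.2e-14). A shorter splice form, BCL-XS, is known to favour death, and counts per gene do not separate the 2 forms. BCL2L1 (ENSG00000171552.12) is on the minus strand, chromosome 20, between 31664452 and 31723989 (all positions are on GRCh38, gene bounds from GENCODE). The antisense gene ABALON shares 1424 exon bases with it on the opposite strand and held 2 to 8 counts per library.

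MCL1 encodes a short-lived guardian whose mRNA and protein both turn over quickly. Its CPM values were 111, 111 and 116 in the shCtrl libraries and 87.1, 85.9 and 90.4 in the shPARP1 libraries, with no overlap. The log2 fold change was -0.36 (SE 0.042, 95% interval -0.45 to -0.28, edgeR adjusted p = 8.3e-11). The change in MCL1 was thus about as large as that in BCL2L1, with the opposite sign. MCL1 (ENSG00000143384.12) is on the minus strand, chromosome 1, between 150574551 and 150579738. BCL2, the founding guardian, first found at a lymphoma translocation, was scarce in these cells. The 3 controls held 82, 108 and 142 BCL2 counts and the 3 knockdown libraries 90, 83 and 81, which after scaling gave 3.43, 4.16 and 5.46 CPM against 2.73, 2.69 and 2.72. The control libraries were spread widely and the knockdown libraries lay close together below all of them. The log2 fold change of BCL2 was -0.68 (SE 0.172, 95% interval -1.03 to -0.34, edgeR adjusted p = 0.000553). It was -0.83 without shCtrl replicate 1 and -0.49 without shCtrl replicate 3 (adjusted p = 0.000107 and 0.0249). On log2(FPKM + 1), a scale that understates changes of genes at so low a level, it was -0.17. BCL2 (ENSG00000171791.11) is on the minus strand, chromosome 18, between 63123346 and 63320128.

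**Figure D2:**
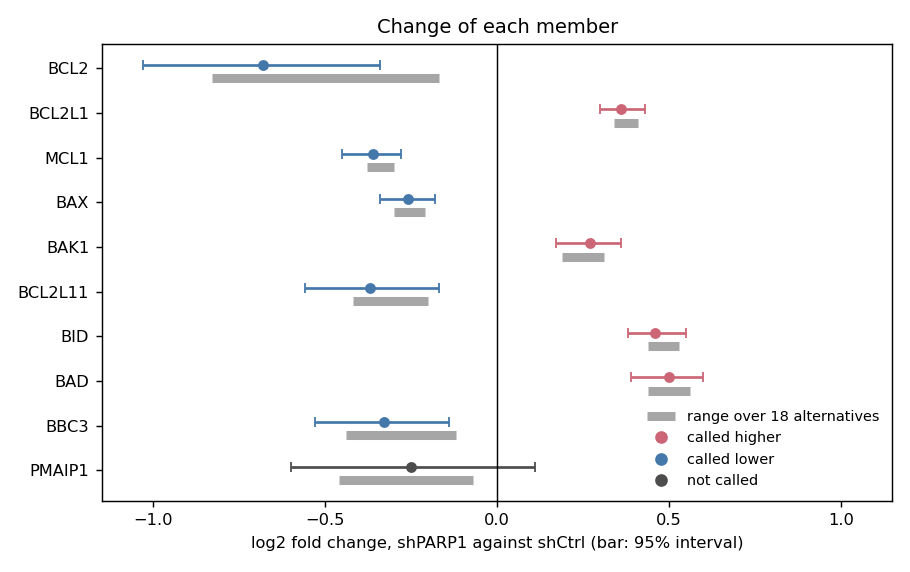
Log2 fold change of shPARP1 against shCtrl for each member (points, with 95% intervals), red for genes called higher, blue for genes called lower and dark grey for PMAIP1, which was not called. The light grey bar under each point spans the estimates of 18 alternative analyses. Each bar stays on 1 side of 0, and the bar of BCL2 is the widest, from -0.83 to -0.17.

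The pore formers moved apart. BAX, which is mostly cytosolic until activated, fell slightly, and BAK1, which sits in the outer membrane from the start, rose slightly. BAX gave 205, 203 and 195 CPM in shCtrl and 177, 165 and 161 CPM in shPARP1. All 3 knockdown libraries lay below all 3 controls, and the log2 fold change was -0.26 (SE 0.038, 95% interval -0.34 to -0.18, edgeR adjusted p = 4.7e-08). BAK1 gave 66.5, 65.6 and 59.5 CPM in shCtrl and 78.7, 78.8 and 72.7 CPM in shPARP1. Its groups did not overlap either, and the log2 fold change was 0.27 (SE 0.049, 95% interval 0.17 to 0.36, edgeR adjusted p = 4.4e-06). Against a minimum change of 1.2-fold, neither BAX nor BAK1 was called (edgeR glmTreat adjusted p = 0.494 and 0.427), whereas 33.7% of all tested genes were. BCL2L11 and BBC3 were not called by that test either (adjusted p = 0.127 and 0.196). BAX (ENSG00000087088.19) is on the plus strand, chromosome 19, between 48954815 and 48961798, and BAK1 (ENSG00000030110.12) on the minus strand, chromosome 6, between 33572547 and 33580293. With an offset for the length and GC content of genes, BAK1 changed by 0.19 and BAX by -0.30.

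Promoter sequence was compared for these 2 pore formers, which changed in opposite directions, and for BCL2L1, the guardian that rose. The windows hold the 250 bases before the RefSeq start of each gene on GRCh38.p14, written 5′ to 3′ on the strand of the gene. They lie at chr19:48954625-48954874 (plus strand) for BAX, chr6:33580277-33580526 (minus strand) for BAK1 and chr20:31723964-31724213 (minus strand, the first of 2 listed starts) for BCL2L1. For each of these genes the RefSeq start lies inside the GENCODE bounds, so the last bases of the window fall within those bounds. Capitals mark matches to 5 motifs, searched on both strands. The E-box was spelled CACGTG and the AP-1 site TGANTCA. The GC box that Sp1 family factors bind was spelled GGGCGG. The TATA box was searched for as the letters TATAAA. The box named for its letters, CCAAT, is bound by the trimeric factor NF-Y.
BAX: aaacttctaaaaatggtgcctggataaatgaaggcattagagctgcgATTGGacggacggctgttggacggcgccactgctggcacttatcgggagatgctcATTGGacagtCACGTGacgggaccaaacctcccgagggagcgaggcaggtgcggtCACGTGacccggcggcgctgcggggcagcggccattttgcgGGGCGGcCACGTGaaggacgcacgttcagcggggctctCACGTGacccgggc
BAK1: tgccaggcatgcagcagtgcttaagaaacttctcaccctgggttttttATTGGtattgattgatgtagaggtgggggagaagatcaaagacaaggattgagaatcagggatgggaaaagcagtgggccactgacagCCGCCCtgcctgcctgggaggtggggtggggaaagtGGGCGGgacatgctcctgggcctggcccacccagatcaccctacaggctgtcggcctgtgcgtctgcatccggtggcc
BCL2L1: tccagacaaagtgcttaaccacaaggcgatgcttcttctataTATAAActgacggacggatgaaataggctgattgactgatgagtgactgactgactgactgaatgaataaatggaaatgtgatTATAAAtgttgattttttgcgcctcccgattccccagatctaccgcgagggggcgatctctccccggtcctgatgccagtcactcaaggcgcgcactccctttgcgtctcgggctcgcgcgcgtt
The BAX window held 4 E-boxes, which begin 138, 93, 45 and 14 bases before the start. Of 35116 promoter windows of this length in the RefSeq table, 6.34% held an E-box and 5 windows held 4 or more. E-boxes are bound by MYC with MAX and by other helix-loop-helix factors. The BAX window also held 2 CCAAT boxes and 1 GC box. The BAK1 window held no E-box. It had 1 CCAAT box, which begins 202 bases before the start, and 2 GC boxes, which begin 114 and 78 bases before it. The BCL2L1 window held 2 TATA boxes, which begin 208 and 125 bases before the start, and no other match. At least 1 TATA box was found in 10.7% of all windows and 2 or more in 2.05%. No AP-1 site was found in these 3 windows. A CCAAT box was present in 32.0% of all windows and a GC box in 42.6%. These matches describe letters in a window, and binding was not measured. Windows were found for 9 of the 10 members. BBC3, which fell, also had an E-box in its window, and so did BID, which rose, in some of its windows. BCL2 and BCL2L11, which fell, had none. The window of the second BCL2L1 start held no match to any of the 5 motifs.

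Of the BH3-only genes, BID and BAD rose, BCL2L11 and BBC3 fell, and PMAIP1 was not called. BID encodes a protein that CASP8 cuts below death receptors, which links them to mitochondria. It gave 82.5, 86.7 and 81.0 CPM in shCtrl and 115, 114 and 116 CPM in shPARP1, with a wide gap between the groups. BID thus had a log2 fold change of 0.46 (SE 0.043, 95% interval 0.38 to 0.55, edgeR adjusted p = 3.4e-14). BID (ENSG00000015475.18) is on the minus strand, chromosome 22, between 17734138 and 17774770. BAD is kept inactive by survival kinases and, when dephosphorylated, binds BCL2 and BCL-XL. Its CPM values were 50.3, 45.4 and 42.2 in the shCtrl libraries and 67.0, 64.4 and 62.8 in the shPARP1 libraries, again without overlap. BAD thus had a log2 fold change of 0.50 (SE 0.054, 95% interval 0.39 to 0.60, edgeR adjusted p = 8.4e-12). BAD (ENSG00000002330.13) is on the minus strand, chromosome 11, between 64269830 and 64284704. The gene GPR137 shares 404 exon bases with it on the opposite strand and went the other way, from 59.8 ± 1.33 to 49.0 ± 4.57 CPM.

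BCL2L11 encodes BIM, which binds all main guardians and can activate the pore formers. Its CPM values were 11.6, 12.7 and 13.6 in the shCtrl libraries and 10.2, 9.5 and 9.74 in the shPARP1 libraries. The groups did not overlap, and the log2 fold change was -0.37 (SE 0.096, 95% interval -0.56 to -0.17, edgeR adjusted p = 0.000975). The change was -0.20 on log2(FPKM + 1) (limma adjusted p = 0.0352). The long noncoding gene MIR4435-2HG shares 727 exon bases with BCL2L11 on the opposite strand and rose, from 34.4 ± 1.17 to 54.8 ± 0.975 CPM. The strand setting of the counting is not given in the sources used here, so reads in such shared bases may not have been assigned to the right gene. BCL2L11 (ENSG00000153094.21) is on the plus strand, chromosome 2, between 111119378 and 111168447.

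BBC3 and PMAIP1 encode PUMA and NOXA, BH3-only proteins known to be induced at the level of transcription by cell stress. BBC3 gave 19.0, 16.7 and 15.1 CPM in shCtrl and 15.2, 11.4 and 13.6 CPM in shPARP1. The highest knockdown library was level with the lowest control, so the groups overlapped. The log2 fold change was -0.33 (SE 0.095, 95% interval -0.53 to -0.14, edgeR adjusted p = 0.00218). This call did not hold without shPARP1 replicate 2 (-0.23, adjusted p = 0.0528), with the length and GC offset (-0.12, adjusted p = 0.264), or on log2(FPKM + 1) (-0.26, limma adjusted p = 0.0578). PMAIP1 had 70, 108 and 99 counts in shCtrl and 76, 103 and 107 in shPARP1, or 2.92, 4.16 and 3.81 CPM against 2.31, 3.34 and 3.59. Both groups held 1 low library, and their ranges overlapped. The log2 fold change of PMAIP1 was -0.25, with a 95% interval from -0.60 to 0.11 (edgeR adjusted p = 0.246). It was -0.07 without shPARP1 replicate 1, -0.12 without shCtrl replicate 2 and -0.38 without shCtrl replicate 1 (adjusted p = 0.797, 0.623 and 0.0905). On log2(FPKM + 1) it was -0.12. With the length and GC offset PMAIP1 changed by -0.46 (adjusted p = 0.0182), so that this offset exchanged the calls of BBC3 and PMAIP1. BBC3 (ENSG00000105327.15) is on the minus strand, chromosome 19, between 47220822 and 47232766, and PMAIP1 (ENSG00000141682.11) on the plus strand, chromosome 18, between 59899948 and 59904306.

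Levels between genes were compared per length, as deposited FPKM (fragments scaled to gene length and library size). In shCtrl the order of mean FPKM was BAX (123 ± 3.27), BCL2L1 (87.9 ± 2.9), BAD (30.0 ± 2.49), BID (25.8 ± 1.22), BAK1 (25.1 ± 1.54), MCL1 (24 ± 0.65), BBC3 (7.01 ± 0.76), BCL2L11 (1.80 ± 0.157), PMAIP1 (1.50 ± 0.286) and BCL2 (0.493 ± 0.121). The ranges of BID and BAK1 overlapped, as did those of BAK1 and MCL1 and those of BCL2L11 and PMAIP1. BAX lay above 97.3% of tested genes and BCL2L1 above 96.0%, whereas BCL2 lay above 19.6%. In shPARP1, BCL2L1 (117 ± 2.76 FPKM) stood first and BAX (106 ± 4.95 FPKM) next, and the order of the others was the same. BID, BAK1 and MCL1 were then separate, at 36.6 ± 0.32, 31.0 ± 1.36 and 19.2 ± 0.535 FPKM. BCL2 was listed at 0.32 FPKM in each knockdown library. The top and the middle of this order depend on the gene lengths used. With CPM per kilobase of merged GENCODE exons, BCL2L1 stood first and BAX next in both groups. The middle then ran BAK1, BAD, MCL1 and BID in shCtrl and BAD, BAK1, BID and MCL1 in shPARP1.

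**Figure D3:**
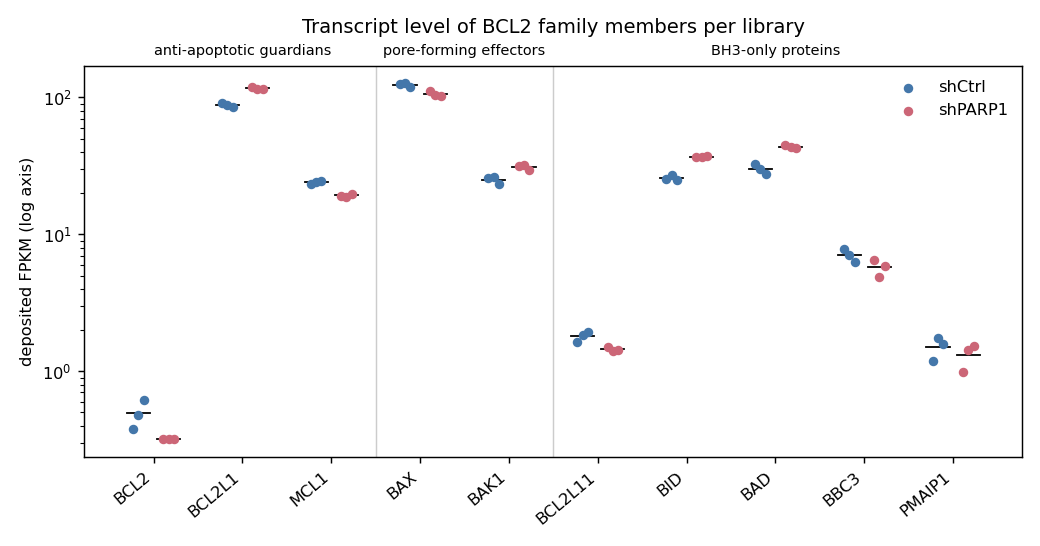
Deposited FPKM of each member in each library on a log axis, with the 3 shCtrl libraries in blue, the 3 shPARP1 libraries in red and the group mean as a black line. BAX and BCL2L1 are the most abundant members in both groups, and BCL2 is the least abundant, between 0.32 and 0.62 FPKM.

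The balance of the main guardian and the main pore former differed between the groups. The FPKM ratio of BAX to BCL2L1 was 1.37, 1.43 and 1.42 in the controls and 0.934, 0.908 and 0.892 in shPARP1. The ratio was lower in all 3 knockdown libraries. Whether it lies above or under 1 depends on the gene lengths used. With CPM per kilobase of merged GENCODE exons, BCL2L1 was above BAX in both groups and the ratio went from 0.889 ± 0.0175 to 0.576 ± 0.0134. The FPKM ratio of BCL2L1 to MCL1 was 3.67 ± 0.219 in shCtrl and 6.07 ± 0.259 in shPARP1. BCL2L1 thus made up 78.2% ± 1.1 of the summed guardian FPKM in shCtrl and 85.6% ± 0.527 in shPARP1. The ratio of BAK1 to MCL1, a guardian known to bind BAK1, was 1.05 ± 0.0872 and 1.62 ± 0.114, and that of BAK1 to BCL2L1 was 0.285 ± 0.00999 and 0.266 ± 0.0102, with overlapping groups. The FPKM ratio of BAX to the scarce BCL2 went the other way, from 261 ± 66.8 in shCtrl to 332 ± 15.5 in shPARP1, with overlapping groups. These ratios are descriptions of transcripts and carry no test.

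Summed by role, the guardians held 34.4% ± 0.478 of the summed FPKM of the 10 members in shCtrl and 37.6% ± 0.381 in shPARP1 (SD, n = 3 per group). Other family genes, such as the BAX-like BOK described further on, are outside these sums. The share of the pore formers was 45.4% ± 0.301 in shCtrl and 37.9% ± 0.686 in shPARP1. The BH3-only genes held 20.2% ± 0.422 and 24.5% ± 0.306. Each share had groups that did not overlap, but the shares add up to a fixed total and are not separate observations. The summed FPKM of the pore formers itself was 149 ± 4.79 in shCtrl and 137 ± 5.9 in shPARP1, with overlapping groups. That of all 10 members was 327 ± 10.1 and 362 ± 9.61. BID and BAD together supplied 84.4% ± 0.0854 of the BH3-only FPKM in shCtrl and 90.5% ± 0.662 in shPARP1. The ratio of summed pore formers to summed guardians was 1.32 ± 0.024 in shCtrl and 1.01 ± 0.0284 in shPARP1. With CPM per kilobase of merged exons it was 0.938 ± 0.0198 and 0.75 ± 0.0218. Both scales weigh the same reads by different gene lengths, so the second is no separate evidence of a lower ratio.

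**Figure D4:**
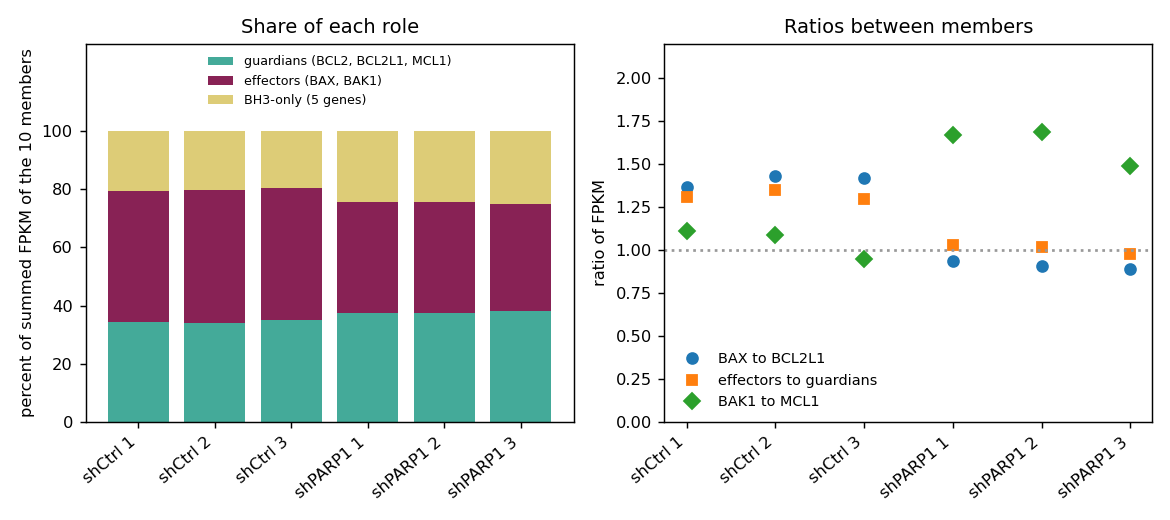
Left, the share of the summed FPKM of the 10 members held by guardians, pore-forming effectors and BH3-only genes in each library. Right, 3 FPKM ratios per library on a linear axis from 0, of which the ratios of BAX to BCL2L1 and of effectors to guardians are lower in the 3 shPARP1 libraries and that of BAK1 to MCL1 is higher.

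The remaining BCL2 family genes also moved both ways. Of 13 genes listed, 8 were tested, of which 3 rose and 2 fell (median log2 fold change 0.12). BNIP3, a mitophagy receptor with a BH3-like motif, rose from 285 ± 17 to 356 ± 5.76 CPM (0.32), and BOK, a BAX-like protein, from 73.1 ± 3.46 to 95.6 ± 5.03 CPM (0.39). BMF, a BH3-only protein tied to the cytoskeleton, fell from 22.8 ± 0.887 to 14.9 ± 1.06 CPM (-0.61), and BCL2L12 fell from 82.7 ± 1.98 to 66.3 ± 3.34 CPM (-0.32). The guardian gene BCL2L2 was at 16.0 ± 2.62 and 14.5 ± 0.483 CPM and was not called. BCL2A1, a guardian best known from blood cells, was at 0.0407 ± 0.0418 and 0.151 ± 0.15 CPM and was too low to test. Numbers given alone in brackets here and further on are log2 fold changes, and the background for each count is 27.3% upward and 28.5% downward.

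At the membrane on which the family acts, 9 of 11 tested partner genes rose and 2 fell (median log2 fold change 0.51). VDAC2, a channel that holds BAK1 and BAX at the membrane, rose from 156 ± 9.42 to 203 ± 4.89 CPM (0.38). MTCH2, a receptor for the cut form of BID, rose from 69.2 ± 4.25 to 98.0 ± 3.41 CPM (0.50). The import receptor gene TOMM22 (1.95) and the import pore gene TOMM40 (0.66) rose as well. Downstream, 7 of 12 apoptosome and caspase genes rose and 2, APAF1 (-0.48) and AIFM1 (-0.3), fell (median 0.21). CYCS, cytochrome c itself, rose from 26.7 ± 1.34 to 53.1 ± 0.746 CPM (0.99). DIABLO (0.38), which blocks inhibitors of apoptosis once released, and ENDOG (0.52) rose too. Among 7 inhibitors of apoptosis, 4 rose and 3 fell (median 0.26). They included rises of BIRC5 from 117 ± 2.91 to 195 ± 1.44 CPM (0.74), BIRC3 (1.01) and XIAP (0.26) and a fall of BIRC7 (-0.99). Of the 3 that fell, BIRC7, BIRC6 and NAIP, all were called in edgeR, and 1 was called with limma on log2(FPKM + 1).

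Upstream of BID, 7 of 13 tested genes of the death receptor arm fell and 2 rose (median log2 fold change -0.32). The receptor genes TNFRSF1A, from 627 ± 7.02 to 390 ± 13.2 CPM (-0.68), TNFRSF10B, from 189 ± 4.5 to 145 ± 1.64 CPM (-0.39), and the decoy TNFRSF10D (-0.36) fell. CFLAR, which restrains CASP8, fell as well (-0.35). CASP8, the protease that cuts BID, was at 11.0 ± 1.76 and 12.1 ± 0.229 CPM and was not called. Of 6 tested transcription factors known to act on genes of the family, 2 rose and 1 fell. DDIT3, the stress factor CHOP, rose from 16.8 ± 1.44 to 27.9 ± 0.134 CPM (0.73), E2F1 rose (0.23) and TP73 fell (-0.71). Against a minimum change of 1.2-fold, which 33.7% of all tested genes passed, some of these counts were smaller by over 1.5 times. The apoptosome list then had 4 genes higher and 1 lower, the inhibitors of apoptosis 2 higher and 2 lower, and the transcription factors 1 higher and 1 lower. The death receptor arm had 0 higher and 6 lower. The outer membrane partners had 8 higher and 1 lower, and the remaining family genes 3 higher and 1 lower. With the length and GC offset, 2 of the transcription factors were called lower.

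**Figure D5:**
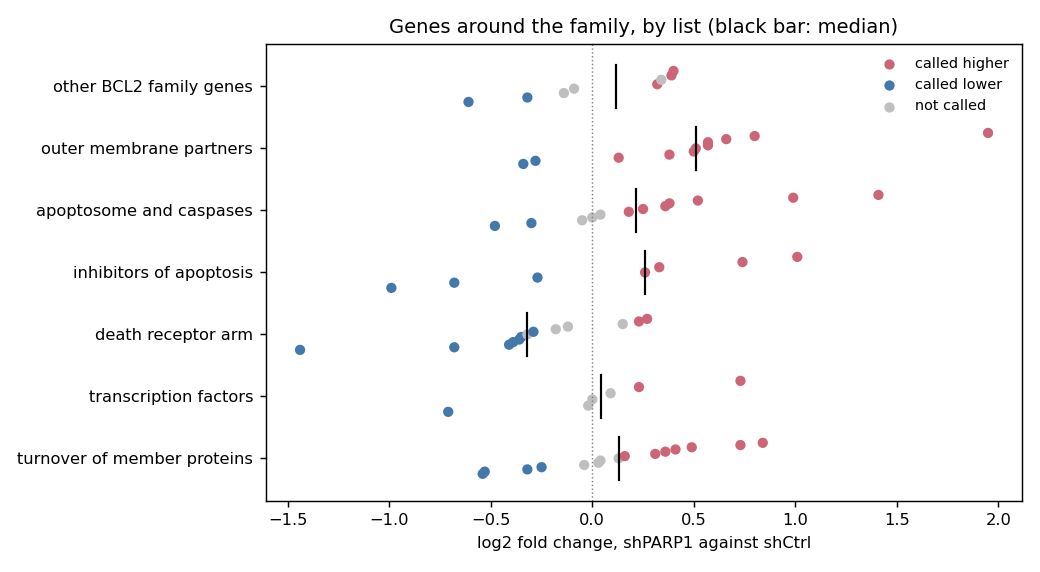
Log2 fold change of shPARP1 against shCtrl for each tested gene of 7 lists around the family, red for genes called higher, blue for genes called lower and grey for genes not called, with the list median as a black bar. The median is 0.51 for the outer membrane partners and -0.32 for the death receptor arm.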

How the data were processed

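Polyadenylated RNA from 3 shPARP1 and 3 shCtrl samples of HK-2 cells was sequenced from stranded libraries in paired-end mode, per the labels' protocols. The authors deposited whole-number read counts per gene, not normalised, and FPKM values with 2 decimals. The submitters' processing notes name GRCh38 as the build, and bcl2fastq, TopHat2 and edgeR as tools. How reads were counted, with which strand setting and annotation, is not given in the sources used here.

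Genes were kept by filterByExpr, scaled with TMM and tested by robust quasi-likelihood fits in edgeR 4.0.16 in R 4.3.3, using all 6 libraries and no covariate, with p-values adjusted over 16040 genes. CPM are TMM-scaled. The fit was tested on simulated data. Within each group, libraries differed by more than sampling noise. The members, the lists and the tests were chosen with earlier results of these data known. All 10 members are named, as are PARP1 and up to 4 called genes per list by smallest p-value. Genes named beyond that rule were chosen after their values were seen. They are KRT8, EPCAM, CDH1, CDH2, PAX8, PAX2, AQP1, LRP2, CUBN, SLC34A1, ANPEP, MME, BCL2L2, BCL2A1, CASP8, APAF1, AIFM1, BIRC6, NAIP and genes overlapping members. Alternatives used DESeq2 1.42.0, limma 3.58.1, other scalings and filters, a minimum change of 1.2-fold, a block for the replicate number, a length and GC offset (99.2% of genes had values) and left-out libraries. Exons came from GENCODE release 29, promoters from RefSeq on GRCh38.p14. A gene length from merged exons in place of FPKM was added after seeing the data. Some genes, and a list and a motif tied to them, are not reported here.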

Additional observations from a re-analysis of the deposited data

How the results depend on the processing

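The direction of each of the 10 members was the same in all 18 alternatives, and BCL2, BCL2L1, MCL1, BID and BAD also stayed called in all of them. Against a 1.2-fold minimum (edgeR glmTreat), 5411 genes were called, 2529 higher and 2882 lower, and among the members 3 were called higher (BCL2L1, BID and BAD) and 2 lower (BCL2 and MCL1). Fewer calls follow from the construction of that test. The other alternatives called 4 members higher and 4 or 5 lower. With CPM per kilobase of merged exons, guardians held 41.4% of the summed level of the 10 members in shCtrl and 43.8% in shPARP1. Effectors held 38.8% and 32.8%, and BH3-only genes 19.8% and 23.4%. Over all tested genes, same-numbered libraries did not deviate together (correlations 0.0358, -0.00421 and 0.0362 for replicates 1 to 3), so the main fit took no pairs. That correlation gives genes with few counts the same weight as others and cannot exclude pairing. From replicate 1 to 3, BCL2L1, BAX and BAD fell in CPM in both groups, whereas BCL2 and BCL2L11 did not. With the replicate block 9060 genes were called, 4443 higher and 4617 lower, with 4 members higher and 5 lower, and no call of a member changed. The SE of BCL2L1 was then 0.028, beside 0.034 without the block, and that of BCL2L11 0.097, beside 0.096. Depth limits BCL2 and PMAIP1, at 70 to 142 counts per library.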

Other observations

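Genes that control the turnover or binding of MCL1, BIM and BAD proteins also changed, with 7 of 15 tested genes higher and 4 lower (median log2 fold change 0.13). AKT1, a survival kinase that phosphorylates BAD, rose from 145 ± 3.1 to 260 ± 5.49 CPM (log2 fold change 0.84). YWHAB and YWHAE, adaptors of the family that holds phosphorylated BAD in the cytosol, rose from 255 ± 4.26 to 424 ± 4.32 CPM (0.73) and from 433 ± 4.01 to 608 ± 0.276 CPM (0.49). HUWE1, a ubiquitin ligase known to act on MCL1, fell from 394 ± 7.69 to 272 ± 8.5 CPM (-0.54). Against a minimum change of 1.2-fold, 5 of the 15 genes were called higher and 2 lower, beside 33.7% of all tested genes called in either direction.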
